A study of Mus musculus with 10 samples.

Results

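The genes described here encode the integrins, the laminin chains and 4 matrix proteins that bind laminins, namely the nidogens (Nid1, Nid2), perlecan (Hspg2) and agrin (Agrn). They were taken by gene symbol from the deposited count table, and 42 of its 49671 rows matched, covering 41 symbols because Itgam is listed under a pair of identifiers. The rows are 27 integrin rows, 11 laminin rows and these 4 further genes. RNA was measured by sequencing in neural crest cells that were sorted for green fluorescence from whole mouse embryos at embryonic day 10.5, with 1 library per embryo. The 5 control embryos had the genotype Wnt1Cre;R26mTmG;p53+/+ and were littermate controls. The 5 embryos called p53_activated had the genotype Wnt1Cre;R26mTmG;p53LSL-25,26/+, in which Cre releases a stabilized p53 from 1 allele beside a normal allele. All embryos carried Wnt1Cre and the R26mTmG reporter on a mixed 129/Sv-C57BL/6 background, and neither group lacks the recombinase. Wnt1-Cre acts in the dorsal neural tube, from which the neural crest arises, so neural tube cells can be among the sorted cells. Green fluorescence marks cells in which Cre acted, or cells that descend from them. Markers of erythroid, epithelial and endothelial cells also had counts in every library.

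Laminins are secreted trimers of an alpha, a beta and a gamma chain, and they assemble into sheets on cell surfaces as the first scaffold of a basement membrane. Nidogens and perlecan link that scaffold to the collagen IV network, and agrin binds the gamma 1 chain of laminin on one side and dystroglycan on the other. Integrins are receptors made of an alpha and a beta subunit that connect matrix to the actin cytoskeleton. Neural crest cells leave the neural tube through a broken basement membrane and migrate over matrix rich in fibronectin and laminin, and their integrins set which of these ligands they hold.

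In the p53_activated embryos 5 of the 31 genes with enough counts to be tested were higher and 0 were lower (edgeR quasi-likelihood F-test, Benjamini-Hochberg adjusted p under 0.05 over all 14528 tested genes). The 5 were Hspg2 and the laminin chain genes Lama1, Lama5, Lamb1 and Lamc1. Over all tested genes 4.49% were called higher and 2.74% lower, 7.23% in all. Upper quartile scaling gave 576 genes higher and 538 lower in place of 652 and 398, with 5 and 0 of the 31. By class, 4 of the 10 tested laminin genes and 1 of the 4 nidogen, perlecan and agrin genes were called, against 0 of the 17 tested integrin genes. At an unadjusted p under 0.05, the same test gave 10 of the 31 genes higher and 0 lower, against 1737 and 1540 of all tested genes. The median log2 fold change was 0.21 over the laminin genes, 0.89 over the nidogens, perlecan and agrin, and 0.01 over the integrins, beside -0.01 over all tested genes. Whether the classes differ from each other was not tested. In the authors' deposited table, 8 of the 34 of these rows with an adjusted p were higher at 0.05 and 0 lower, where 6.34% of all its genes were higher and 4.43% lower. Those 8 were the same 5 genes with Nid2, Itga8 and Nid1. DESeq2 on the counts also called 8 of these genes, where 6.71% of all genes were called higher.

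**Figure D1:**
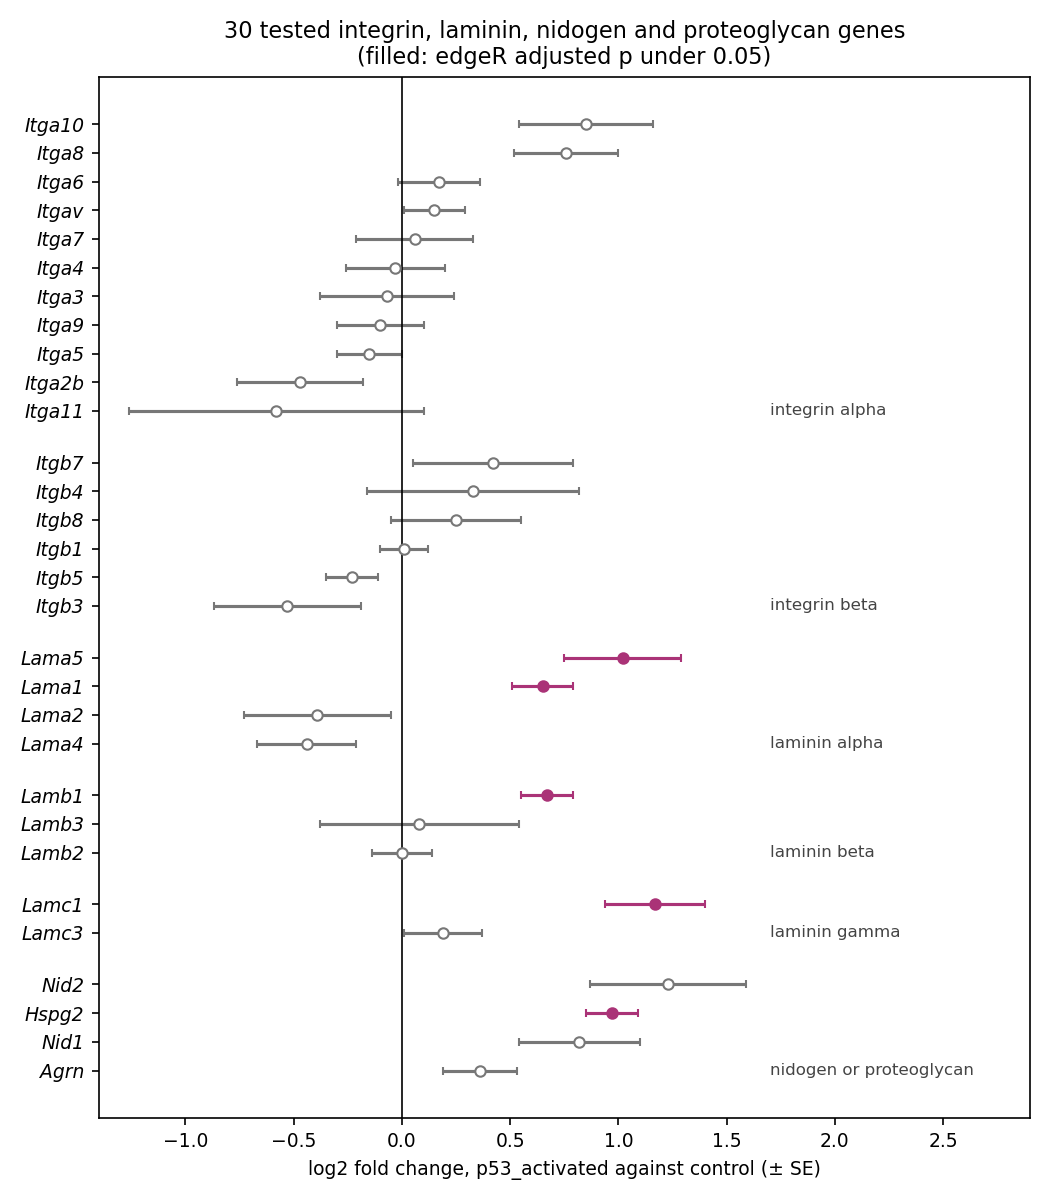
Log2 fold change of 30 tested genes, p53_activated against control, as a point with bars of 1 standard error, grouped by role; filled points have an edgeR adjusted p under 0.05. The filled points are Lama1, Lama5, Lamb1, Lamc1 and Hspg2, all to the right of 0, while the integrin points lie on both sides of 0 from -0.58 to 0.85.

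The libraries held 12368058 to 23514828 counts in the control group and 14644162 to 28379562 in the p53_activated group, and the labels were checked on known p53 target genes. Cdkn1a, the gene of the p21 brake on the cell cycle, went from 7.93 to 105 CPM (CPM, counts relative to the TMM-scaled library size; adjusted p = 1.74e-10), and Mdm2 from 24.5 to 47.3 CPM (adjusted p = 2.48e-05). Of 10 marker lists, the neuron list was lower in p53_activated libraries, at a summed 312 to 493 CPM against 605 to 825 CPM, with 6 of 6 genes called lower. The glia list stood at 140 to 216 CPM against 259 to 298 CPM, with 2 of 6 genes called lower, and the neural crest and arch list at 306 to 373 CPM against 338 to 472 CPM, with 2 of 10 called lower. Fewer cells of a type and less RNA per cell cannot be told apart in these bulk libraries, and the part of either in the matrix genes was not tested. The epithelium list, whose cells are a known source of laminin, stood at 41.3 to 122 CPM against 75.3 to 180 CPM in the controls, and the endothelium list at 26.1 to 47.7 CPM against 16.1 to 59.7 CPM. No gene of either list was called, 7 and 6 of their genes being tested, and 0 of their genes were without counts in all libraries. The neural tube list stood at 96.9 to 144 CPM against 67.4 to 152 CPM, with 1 of 6 genes called higher. The labels name no litter, so the p-values measure the spread between these embryos.

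The RefSeq promoter table on GRCm38.p6 had a window for 26 of the 41 symbols, covering 250 bases before to 50 after the transcription start, and for 21 of the 31 tested genes. Of the 5 genes that rose, Hspg2, Lamb1 and Lama5 had a window. Stretches of these 3 are given as the promoters of genes that moved together, and none of their windows matches the p53 half-site consensus. The stretch of Nid1, which was not called, is given as that of the tested laminin-binding gene whose window matches it. Each stretch runs 5′ to 3′ on the gene's strand and stops before the first annotated transcript start. Capitals mark the GC box (GGGCGG), the CCAAT box, spelled as its name, and, near the start of the Nid1 stretch, the p53 half-site. All were searched on both strands, so a match can appear as the reverse complement, and no marked match overlaps another.

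Hspg2 chr4:137468553-137468750 (plus strand): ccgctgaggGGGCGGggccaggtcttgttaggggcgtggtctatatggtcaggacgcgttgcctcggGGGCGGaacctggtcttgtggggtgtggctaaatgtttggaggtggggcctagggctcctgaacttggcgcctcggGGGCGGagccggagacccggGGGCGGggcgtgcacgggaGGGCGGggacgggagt
Lamb1 chr12:31265043-31265145 (plus strand): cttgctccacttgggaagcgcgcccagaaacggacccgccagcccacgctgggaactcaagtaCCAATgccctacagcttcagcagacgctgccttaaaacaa
Lama5 chr2:180225905-180226104 (minus strand): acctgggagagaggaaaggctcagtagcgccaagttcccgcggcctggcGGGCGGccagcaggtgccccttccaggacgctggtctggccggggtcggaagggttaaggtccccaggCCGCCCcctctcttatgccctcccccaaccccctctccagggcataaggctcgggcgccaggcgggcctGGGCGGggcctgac
Nid1 chr13:13437352-13437550 (plus strand): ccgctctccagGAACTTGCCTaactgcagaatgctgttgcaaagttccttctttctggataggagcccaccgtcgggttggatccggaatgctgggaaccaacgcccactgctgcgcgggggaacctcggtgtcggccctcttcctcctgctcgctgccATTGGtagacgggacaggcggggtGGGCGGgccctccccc

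The whole windows held 5 GC boxes for Hspg2, 4 for Lama5, 2 for Lamb1 and 1 for Nid1. A GC box was in 35.7% of the 32851 windows of the table and 2 or more in 19.5%, and 12 of the 21 tested genes with a window had one. The CCAAT box, found once in the windows of Lamb1 and Nid1, was in 37.4% of all windows, and TATAAA, found in none of these 4, in 13.6%. The p53 half-site consensus was matched in 8.36% of all windows and in those of 2 of the 21 genes, Nid1 and Itga9, neither of them called. The Itga9 window lies at a RefSeq start inside the gene (118711692), whose first annotated start is at 118606690. Shares over the table count windows, while those of the 21 genes count a gene if any of its windows matched. These matches describe the letters only.

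Among the laminin alpha chains, which carry the main binding sites for integrins and dystroglycan, Lama1 and Lama5 rose and Lama4 and Lama2 did not pass the test. Lama1 (ENSMUSG00000032796, chromosome 17, 67697259 to 67822647, GRCm38) encodes the chain of the earliest embryonic basement membranes. Its level was 20.8, 24.2, 22.6, 22.7 and 24.9 CPM in control replicates 1 to 5. In p53_activated replicates 1 to 5 it was 36.3, 26.2, 35.0, 45.3 and 37.5 CPM. All p53_activated embryos lay above all controls, with replicate 2 only just above the highest control. Group means were 23 ± 1.62 and 36.1 ± 6.83 CPM (± SD over 5 embryos), and the log2 fold change was 0.65 with a standard error of 0.14 (edgeR adjusted p = 0.00896). Values after ± are likewise SDs for CPM and standard errors for log2 fold changes. Without both p53_activated replicates 4 and 5 it was 0.51 (adjusted p = 0.0522).

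Lama5 (ENSMUSG00000015647, chromosome 2, 180176373 to 180225859), whose chain is widespread in later epithelial and vascular basement membranes, had the larger fold change of the pair. The control embryos had 6.2, 6.61, 10.9, 11.5 and 12.8 CPM, and the p53_activated embryos 13.4, 15.6, 13.7, 31 and 23.6 CPM. The groups did not overlap, and p53_activated replicates 4 and 5 stood well above the other 3. In the same 2 embryos epithelium markers summed to 122 and 101 CPM, against 41.3 to 60.1 CPM in the other 3. Endothelium markers summed to 47.7 and 40.2 CPM, against 26.1 to 27.3 CPM. Control replicates 4 and 5 had epithelium sums of 180 and 179 CPM, against 75.3 to 90.4 CPM in the other controls. Their endothelium sums were 59.7 and 45.7 CPM, against 16.1 to 30.6 CPM. Lama5 in these 2 was 11.5 and 12.8 CPM, the highest of the controls and below every p53_activated embryo. The part of these cell types in the Lama5 values was not tested. Group means of 9.61 ± 3.01 and 19.5 ± 7.68 CPM gave a 2.03-fold rise (log2 1.02 ± 0.27, adjusted p = 0.0362). This was the least stable of the 5 calls. It was lost without control replicate 1 (adjusted p = 0.0748), 2 (0.0904), 3 (0.0519) or 4 (0.0535), and without p53_activated replicate 4 (0.07) or 5 (0.0879), with log2 fold changes from 0.78 to 1.09.

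Lama4 encodes the alpha chain of vessel walls and peripheral nerve. Control embryos had 46.5, 30.1, 21.5, 19.5 and 18.9 CPM and p53_activated embryos 14.7, 23.4, 21.5, 22.4 and 18.6 CPM. Control replicates 1 and 2 lay above every p53_activated embryo, and the other 3 controls lay within their range. The log2 fold change was -0.44 ± 0.23 (adjusted p = 0.292), it was -0.16 without control replicate 1, and without both control replicates 1 and 2 it was 0.01. Lama2, the chain of muscle and Schwann cell basement membranes, had a log2 fold change of -0.39 ± 0.34 (adjusted p = 0.546), which was -0.08 without control replicate 1. Lama3, a chain of skin basement membranes, had 8 counts over the control libraries and 14 over the p53_activated libraries and was not tested.

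Of the beta chains, Lamb1 rose and Lamb2 did not. Lamb1 (ENSMUSG00000002900, chromosome 12, 31265234 to 31329644) had 31.5, 38.1, 30.3, 32.4 and 36.4 CPM in the controls and 51.8, 54.1, 43.5, 68.0 and 49.9 CPM in the p53_activated embryos. The controls were close together and every p53_activated embryo was above them. Group means were 33.8 ± 3.36 and 53.5 ± 9.03 CPM, and the log2 fold change of 0.67 ± 0.12 passed the test (adjusted p = 0.00381). Lamb2, which replaces the beta 1 chain at synapses and in some mature basement membranes, had 82.8, 56.9, 61.8, 48.8 and 47.2 CPM in the controls and 58.0, 65.3, 53.4, 54.9 and 65.5 CPM in the p53_activated embryos. Those values overlapped over most of their range around means of 59.5 and 59.4 CPM, with an adjusted p of 0.990 and a standard error of 0.14 on the log2 scale. Lamb3, the beta chain of skin laminin, averaged 0.812 and 0.834 CPM in the groups (log2 fold change 0.08 ± 0.46, adjusted p = 0.947).

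Lamc1 (ENSMUSG00000026478, chromosome 1, 153218922 to 153332786) encodes the gamma 1 chain, which most laminin trimers contain and to which the nidogens bind. The control embryos had 10.8, 8.81, 6.85, 9.95 and 13.6 CPM and the p53_activated embryos 13.8, 22.2, 17, 29.7 and 29.2 CPM. The groups were separated by a narrow gap between control replicate 5 and p53_activated replicate 1. The mean rose 2.25-fold, from 10 ± 2.5 to 22.4 ± 7.13 CPM (log2 1.17 ± 0.23, adjusted p = 0.00565). Lamc3, found in brain and retina among other places, had 14.8, 13.4, 8.68, 10.7 and 13.3 CPM in the controls and 11.2, 15.2, 15.6, 15.7 and 11.2 CPM in the p53_activated embryos, which overlapped (log2 fold change 0.19 ± 0.18, adjusted p = 0.586).

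**Figure D2:**
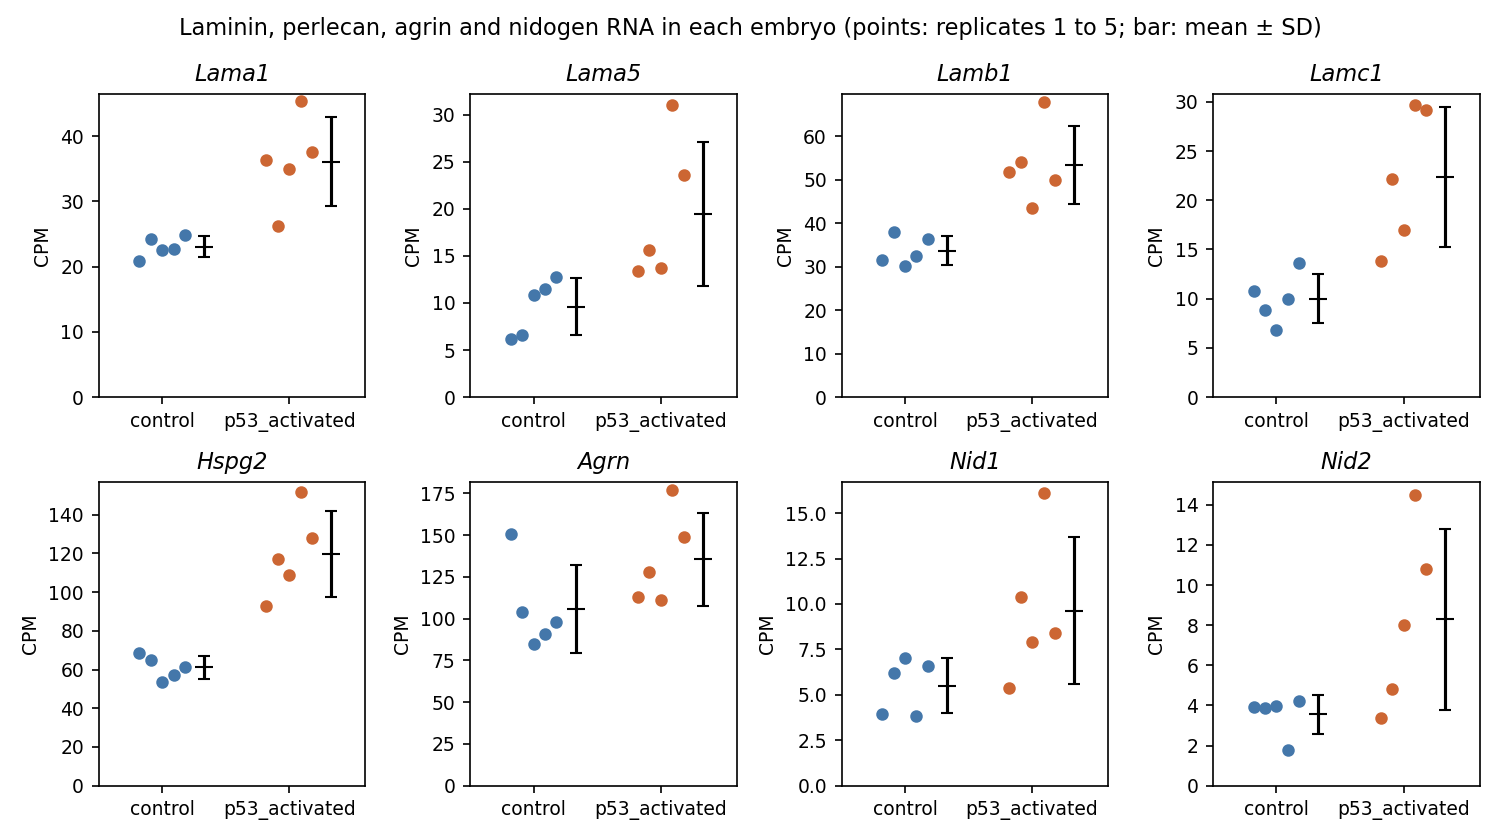
CPM of 8 laminin, proteoglycan and nidogen genes in every embryo, each panel with its own axis from 0; points are replicates 1 to 5 from left to right and the bar is the mean ± SD of the group. Lama1, Lama5, Lamb1, Lamc1 and Hspg2 show no overlap between the groups, Agrn, Nid1 and Nid2 do, and p53_activated replicate 4 is the highest of its group in all 8 panels.

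Hspg2 (ENSMUSG00000028763, chromosome 4, 137468769 to 137570630), encoding the heparan sulfate proteoglycan perlecan, had the smallest p of all 31 genes. Its level was 68.3, 65.1, 53.5, 57.4 and 61.5 CPM in the controls and 93.0, 117, 109, 152 and 128 CPM in the p53_activated embryos. The lowest p53_activated embryo was well clear of the highest control. The mean rose 1.96-fold, from 61.1 ± 5.92 to 120 ± 22.1 CPM (log2 0.97 ± 0.12, edgeR adjusted p = 8.9e-05), and the call held in all 23 other settings tried.

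Agrn, the other heparan sulfate proteoglycan, known from the neuromuscular junction but also a part of embryonic basement membranes, had 151, 104, 84.6, 90.7 and 98.0 CPM in the controls and 113, 128, 111, 177 and 149 CPM in the p53_activated embryos. Control replicate 1 was above 4 of the 5 p53_activated embryos, while the other 4 controls were below all of them. The log2 fold change was 0.36 ± 0.17 (adjusted p = 0.221), and without control replicate 1 it was 0.52 (adjusted p = 0.0291). No other fit with a single library left out passed. It was 0.24 without p53_activated replicate 4 (adjusted p = 0.404), and 0.16 without both p53_activated replicates 4 and 5 (adjusted p = 0.64).

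The nidogen genes had large fold changes with a wide spread and did not pass. Nid2 had 3.92, 3.85, 3.95, 1.79 and 4.23 CPM in the controls and 3.37, 4.83, 7.99, 14.5 and 10.8 CPM in the p53_activated embryos. Replicate 1 of the p53_activated group lay within the control range and replicates 4 and 5 far above it. The log2 fold change was 1.23 ± 0.36 (adjusted p = 0.0517), with an adjusted p of 0.0135 without p53_activated replicate 1 and 0.0414 without replicate 2, and a log2 fold change of 0.62 without replicates 4 and 5. Its exons share 8.45% of their length with Rtraf on the opposite strand. Nid1 had 3.92, 6.21, 7.02, 3.83 and 6.56 CPM in the controls and 5.37, 10.4, 7.92, 16.1 and 8.39 CPM in the p53_activated embryos, of which only replicate 1 fell among the controls. Its log2 fold change was 0.82 ± 0.28 (adjusted p = 0.0896; 0.04 without p53_activated replicate 1), and it was 0.54 without p53_activated replicate 4.

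Integrin genes gave no call in either direction, with 9 of the 17 log2 fold changes above 0 and 8 below (Itgb1, at 0.01, was -0.02 with upper quartile scaling). The 2 integrin genes with an unadjusted p under 0.05 were Itga8 and Itga10. Itga8, whose product pairs with beta 1 and binds nephronectin and fibronectin, had 5.12, 3.85, 2.41, 3.32 and 3.13 CPM in the controls and 4.75, 7.3, 5.43, 6.75 and 5.83 CPM in the p53_activated embryos. Only control replicate 1 reached into the p53_activated range. The log2 fold change was 0.76 ± 0.24 (adjusted p = 0.0697), and 0.93 without control replicate 1 (adjusted p = 0.0351). No other fit with a single library left out passed (log2 fold change down to 0.65, adjusted p up to 0.147). Its exons share 5.05% of their length with E030013I19Rik on the opposite strand.

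Itga10, a collagen-binding subunit best known from cartilage, had 1.02, 1.73, 2.41, 2.55 and 1.46 CPM in the controls and 3.58, 3.83, 3.21, 3.46 and 2.57 CPM in the p53_activated embryos. These groups did not overlap, by 2.57 against 2.55 CPM, yet the log2 fold change of 0.85 ± 0.31 did not pass (adjusted p = 0.106). Of its exon length 33.53% is shared with the gene Gm42957 on the same strand, so its counts are uncertain. With Itga10, 6 of the 31 genes had every p53_activated embryo above every control and 0 the reverse. Over all tested genes those shares were 4.54% and 3.52%.

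None of 5 tested subunits of laminin-binding integrins (Itgb1, Itga3, Itga6, Itga7 and Itgb4) was called, where 7.23% of all tested genes were called. With 5 genes, 0 calls is not apart from that share. Itgb1, the beta subunit shared by most matrix receptors, had 103, 98.1, 81.0, 90.0 and 83.2 CPM in the controls and 90.5, 88.6, 73.3, 100 and 108 CPM in the p53_activated embryos. The groups overlapped across their whole range, with means of 91.2 ± 9.58 and 92.0 ± 13 CPM and a log2 fold change of 0.01 ± 0.11 (adjusted p = 0.958). The alpha subunits that pair with it to bind laminin had log2 fold changes of 0.17 ± 0.19 (Itga6), 0.06 ± 0.27 (Itga7) and -0.07 ± 0.31 (Itga3), and Itgb4, the partner of Itga6 in hemidesmosomes, 0.33 ± 0.49, with adjusted p from 0.673 to 0.930. A p that misses the threshold does not show that a level stayed the same, and the standard error of Itgb4 leaves room for a change the size of that of Lama1.

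Among the receptors for fibronectin and other ligands with an RGD motif, Itgb5, which pairs with the alpha v subunit to bind vitronectin, had 184, 171, 121, 128 and 125 CPM in the controls and 116, 122, 125, 145 and 112 CPM in the p53_activated embryos. Control replicates 1 and 2 were above every p53_activated embryo and the other 3 overlapped them (log2 fold change -0.23 ± 0.12, adjusted p = 0.28). Itga5, the main fibronectin receptor subunit, had 27.2, 33.8, 32.9, 26.6 and 20.4 CPM in the controls and 25.3, 20.5, 25.6, 26.4 and 29.1 CPM in the p53_activated embryos, again overlapping (-0.15 ± 0.15, adjusted p = 0.594). Itgav, the alpha v subunit itself, had means of 36.0 ± 7.32 and 40.0 ± 5.13 CPM (0.15 ± 0.14, adjusted p = 0.581). Among the other beta subunits that can pair with alpha v, Itgb3 gave -0.53 ± 0.34 and Itgb8 0.25 ± 0.30, and neither passed.

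Itga9, which binds tenascin-C, VCAM1 and the fibronectin splice form with the EIIIA segment, had the highest level of the alpha subunits. The controls had 61.6, 86.7, 80.7, 57.2 and 83.2 CPM and the p53_activated embryos 79.7, 38.3, 81.0, 60.7 and 85.7 CPM. Replicate 2 of the p53_activated group was the lowest of all 10 embryos, and the other 4 lay within the control range (-0.10 ± 0.20, adjusted p = 0.824). Itga4, the related receptor for fibronectin and VCAM1, gave -0.03 ± 0.23 (adjusted p = 0.956), and Itgb7, which pairs with it in lymphocytes, 0.42 ± 0.37 (adjusted p = 0.555). Itga11, a collagen receptor of mesenchyme, was under 4 CPM in all embryos and gave -0.58 ± 0.68 (adjusted p = 0.677), or -1.41 without p53_activated replicate 4 and -0.18 without control replicate 1.

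Itga2b encodes the platelet subunit that pairs with the beta 3 subunit. It had 7.45, 6.37, 4.73, 8.17 and 8.81 CPM in the controls and 3.79, 3.05, 4.12, 9.52 and 4.79 CPM in the p53_activated embryos. Replicate 4 of the p53_activated group was above all controls and the other 4 were near or below the lowest of them. The log2 fold change was -0.47 ± 0.29 (adjusted p = 0.370), and without p53_activated replicate 4 it was -0.85 (adjusted p = 0.0468). Megakaryocyte and platelet markers summed to 12.8 CPM in that embryo and 3.99 to 7.82 CPM in the other 4 of its group. The controls had 7.6 to 17 CPM, so on this sum that embryo lay within the control range. Of the 3 tested markers 0 were called, with log2 fold changes of -1.43 (Pf4), -0.74 (Gp1bb) and 0.54 (Gp1ba). The part of blood cells in the Itga2b and Itgb3 values was not tested.

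The 10 integrin rows without enough counts were mostly leukocyte subunits. Itgal, Itgae and Itga1 had 62 and 100, 46 and 72, and 52 and 55 counts over the control and p53_activated libraries. Itgb6, a subunit of epithelia, had 10 and 29, the collagen receptor gene Itga2 had 9 and 3, Itgax 7 and 0, Itgb2 2 and 7, and Itgam 0 and 3. Itgad and the second Itgam row had 0 counts in all libraries. The macrophage and other white blood cell markers summed to 14.7 to 41.9 CPM in the controls and 21.1 to 32.7 CPM in the p53_activated embryos.

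Levels of different genes were compared as CPM per kb of exon. In the controls Itgb5 was highest at 41.0 ± 8.25 CPM per kb (SD, n = 5), followed by Itgb1 at 22.3 ± 2.35 and Agrn at 11.4 ± 2.86. Each of these steps exceeded the larger SD of the neighbours, while Agrn, Lamb2 (9.78 ± 2.36) and Itga9 (9.60 ± 1.75) could not be ordered. Next came Itga5 (5.71 ± 1.10), Hspg2 (4.27 ± 0.414) and Lamb1 (3.40 ± 0.339), each apart from the one before by more than the larger SD. Lamb1 and Itgav could not be ordered, nor could Lama1 (2.38 ± 0.167), Lama4 (2.26 ± 0.966) and Lamc3 (2.0). Lamc1 (1.21 ± 0.303) and Lama5 (0.844 ± 0.265) were lower, and Nid1, Itga4 and Nid2 had means of 0.793, 0.692 and 0.686 CPM per kb. In the p53_activated embryos Hspg2 stood at 8.38, Lamb1 at 5.39, Lama1 at 3.73, Lamc1 at 2.71 and Lama5 at 1.71 CPM per kb. Thus the receptors with no call, Itgb5 and Itgb1, remained the most abundant of these transcripts per length in both groups (34.9 and 22.6 CPM per kb in the p53_activated embryos).

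**Figure D3:**
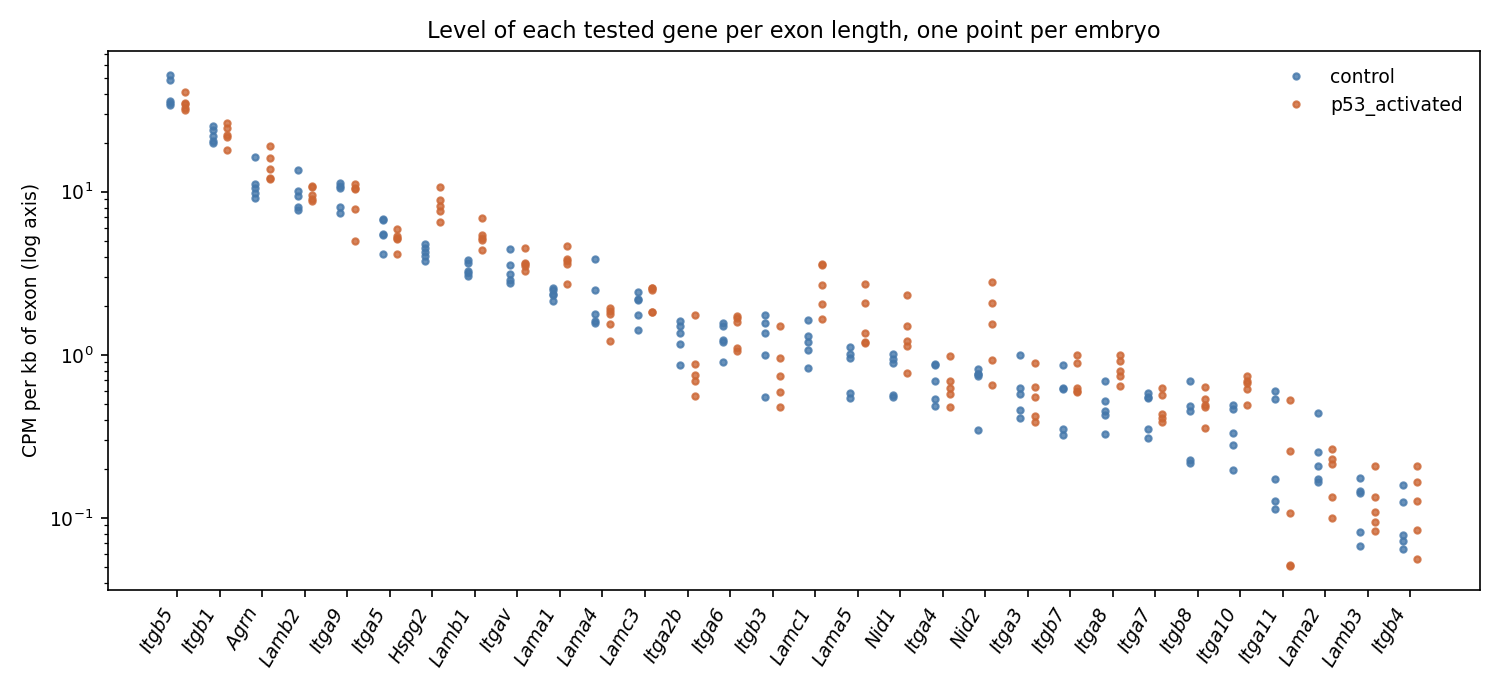
Level of 30 tested genes in CPM per kb of exon on a log axis, 1 point per embryo, ordered by the control mean. Itgb5 and Itgb1 lead at control means of 41.0 and 22.3, the 5 genes that rose sit in the upper and middle parts of the order, and the 2 genes at the right end, Lamb3 and Itgb4, are near 0.1.

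Since laminins assemble from 1 chain of each class, the share of each chain within its class was also described, as a percentage of the class sum in CPM per kb and without a test. Of the sum of Lamc1 and Lamc3, Lamc1 made up 32.7% to 43.1% in the controls and 44.4% to 65.7% in the p53_activated embryos, with means of 37.6% ± 4.25 and 53.5% ± 8.54 (SD, n = 5). Lamc3 was the larger of the pair in all controls, at 62.4% on average, and averaged 46.5% in the p53_activated embryos. These shares did not overlap between the groups. Lamb1 made up 18.7% to 31.6% of beta chain RNA in the controls and 31.7% to 42.6% in the p53_activated embryos, which touched without overlap, and Lamb2 was the larger share in every embryo.

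Within the alpha chains, Lama1 had 42.1% in the controls and 51.2% in the p53_activated embryos on average, Lama5 15.3% and 22.8%, and Lama4 38.3% and 23.3%, all with overlap between the groups. By this measure control replicate 1 was the only embryo in which Lama4 exceeded Lama1, at 54.9% against 30.5%. In control replicate 2 they were level, at 42.8% and 42.9%, and the order rests on the exon lengths used. Summed over a class, alpha chains reached 5.17 to 7.03 CPM per kb in the controls and 6.27 to 9.5 in the p53_activated embryos, and Lamc1 with Lamc3 2.25 to 3.82 and 3.51 to 6.17. Beta chains summed to 11.4 to 16.9 and 13.3 to 16.3 CPM per kb, with control replicate 1 the highest of all embryos. Integrin sums overlapped, at 22.1 to 27.6 and 19.8 to 26.5 CPM per kb for the alpha subunits and 56.0 to 79.7 and 55.0 to 68.3 for the beta subunits, where control replicates 1 and 2 were above every p53_activated embryo.

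**Figure D4:**
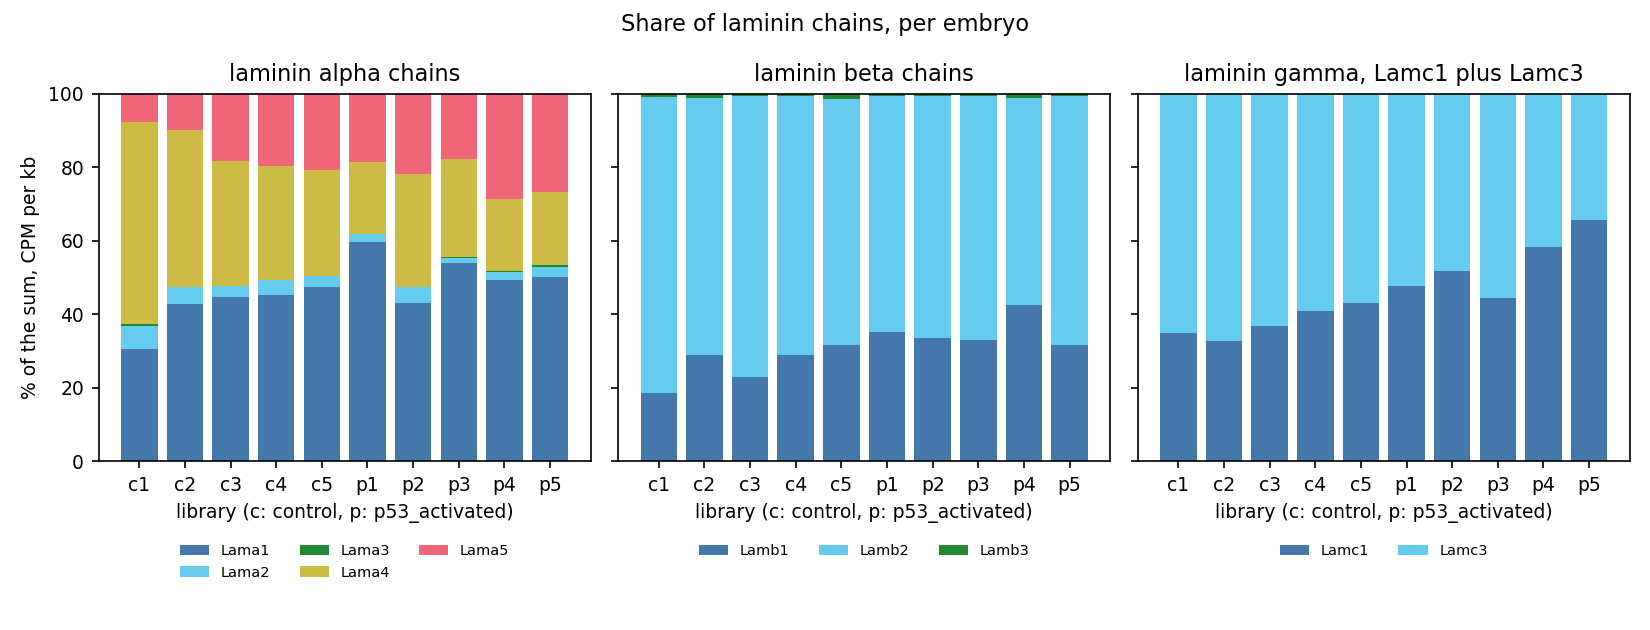
Stacked bars of the share of laminin chains, in % of the sum of the alpha chains, of the beta chains, and of Lamc1 with Lamc3, in CPM per kb, for control (c1 to c5) and p53_activated (p1 to p5) libraries. The Lamc1 segment is 32.7% to 43.1% high in the controls and 44.4% to 65.7% in the p53_activated libraries, and the Lamb2 segment is the larger of the beta chains in all 10.

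The embryos of the p53_activated group were not alike in these genes. Replicate 4, also the most deeply sequenced library, was the highest of its group in 18 of the 31 tested genes and in 11 of the 14 laminin, nidogen and proteoglycan genes. Its erythroid markers summed to 5940 CPM, against 493 to 2860 CPM in the rest of its group and 817 to 4430 CPM in the controls. Its epithelium markers summed to 122 CPM, also the highest of the group, where the controls had 75.3 to 180 CPM. Without that library the log2 fold changes were 0.87 for Hspg2, 0.56 for Lamb1, 1.04 for Lamc1, 0.55 for Lama1 and 0.78 for Lama5, with adjusted p of 9.51e-05, 0.00652, 0.0133, 0.0195 and 0.07. Without both replicates 4 and 5, Hspg2, Lamb1 and Lamc1 were the 3 genes called higher.

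**Figure D5:**
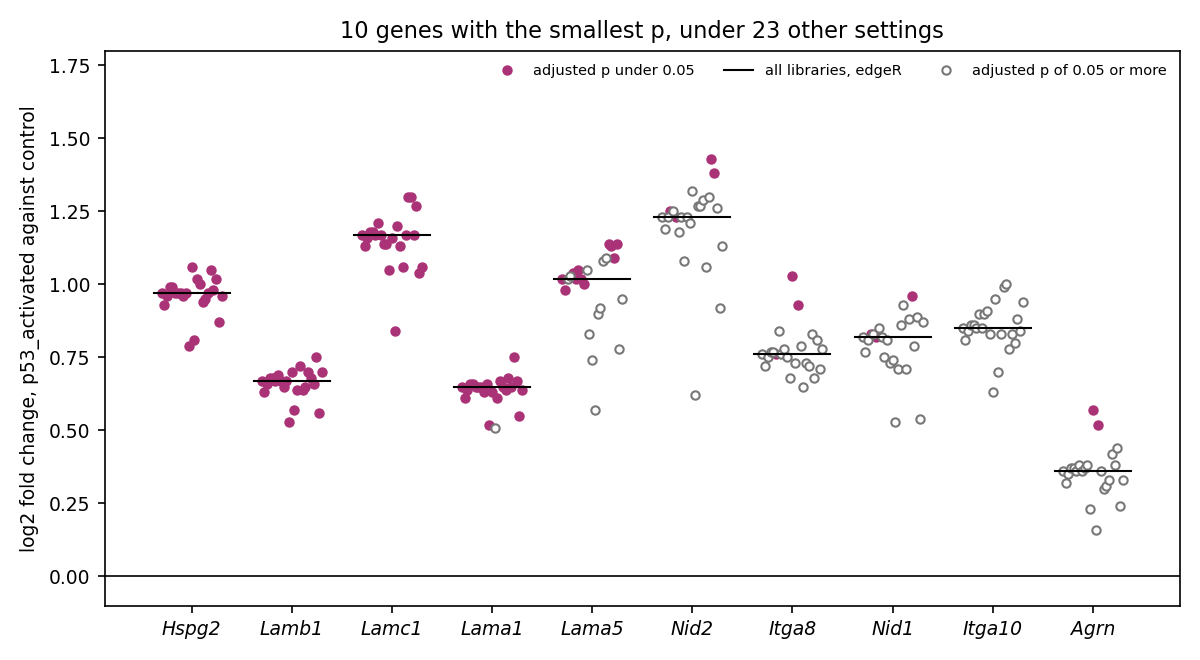
Log2 fold change of the 10 genes with the smallest p, as 1 point per alternative setting (23 each) around a black line at the value from all libraries; filled points have an adjusted p under 0.05. All points lie above 0; Hspg2, Lamb1 and Lamc1 are filled throughout, Lama1 is open once, and Lama5 is open in 12 settings, the lowest at 0.57.

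Transcript length moved with these calls. The 5 genes that rose all have more than 8000 bp of annotated exon, and 14 of the 31 tested genes fell in that range. Over all 2494 tested genes of that length the median log2 fold change was 0.12 and 9.06% were called higher and 1.16% lower, against -0.10, 1.36% and 4.0% for the 2573 genes of up to 2000 bp. With the trend on length subtracted, the log2 fold changes were 0.79 for Hspg2, 0.53 for Lamb1, 1.05 for Lamc1, 0.52 for Lama1 and 0.83 for Lama5, of which Lama5 no longer passed (adjusted p = 0.0529). Tested genes of that length without a call included Agrn, Itga4, Itga6, Itga7, Itgav, Itgb8, Lama2 and Lama4. The cause of the trend on length was not tested.

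Genes that work with integrins and laminins were read from a list of 75, of which 64 were tested, 8 were called higher and 0 lower, with a median log2 fold change of 0.17. Over all tested genes the shares called were 4.49% higher and 2.74% lower. Among the integrin activators and adhesion plaque genes 4 of 27 were called higher. Talin links the beta subunit to actin and switches integrins on, and both talin genes rose. Tln1 went from 27.5 ± 2.82 to 56.0 ± 22.3 CPM (log2 1.03 ± 0.21, adjusted p = 0.0101) and Tln2 from 27.0 ± 2.44 to 40.8 ± 8.65 CPM (0.60 ± 0.14, adjusted p = 0.0177), neither with overlap between the groups. Parvb, a member of the complex of integrin-linked kinase, rose from 20.4 ± 3.49 to 34.2 ± 3.49 CPM (0.74 ± 0.14, adjusted p = 0.0039).

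Of the basement membrane partners and other integrin ligands 2 of 24 were called higher. Col18a1, the collagen that yields endostatin, rose from 115 ± 16.6 to 192 ± 16.9 CPM (0.74 ± 0.11, adjusted p = 0.00036). The main collagen IV genes did not pass, with 0.69 ± 0.29 for Col4a1 (adjusted p = 0.20) and 0.51 ± 0.27 for Col4a2 (adjusted p = 0.289). Nor did Vcam1, a ligand of the alpha 4 and alpha 9 subunits (-0.67 ± 0.20, adjusted p = 0.0568). Of the non-integrin receptors of laminin and agrin 2 of 13 were called. Sdc1, the heparan sulfate proteoglycan syndecan 1, rose from 153 ± 10.6 to 193 ± 10.9 CPM (0.34 ± 0.08, adjusted p = 0.0201; 0.0511 without p53_activated replicate 2), and Dag1, which encodes dystroglycan, had 0.42 ± 0.23 (adjusted p = 0.293). The remaining 3 calls, named after their values were seen, were Col4a5, Utrn and Pxn, and each was lost when any of 5 or more single libraries was left out (adjusted p up to 0.0749, 0.0784 and 0.094).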

How the data were processed

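RNA was sequenced from 10 embryos, 5 control and 5 p53_activated, and table columns were tied to samples through the numbers that the labels give as descriptions. Whole-number values for each Ensembl gene identifier were deposited by the authors in columns headed as counts, and were taken as read counts without normalization. Per the submitters' processing notes, the tools were DESeq2 1.14.1, HTSeq 0.6.1, SAMtools 1.3.1 and HISAT2 2.0.4, with GRCm38. What each did is not given in the sources used here, nor are the annotation release and the strand setting. Reads in shared exons are therefore uncertain. The authors' deposited comparison table has, per the file headers, a mean normalized count (a signal), a log2 fold change, a Wald statistic (a score), a p-value and an adjusted p-value.

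From the counts, filterByExpr (minimum count 10, minimum total 15) kept 14528 of 49671 genes, 27213 of which had a count. Libraries of 12368058 to 28379562 counts set the depth. The test was the robust quasi-likelihood F-test of edgeR 4.0.16 after TMM scaling (R 4.3.3, no covariate, Benjamini-Hochberg threshold 0.05). A standard error is the size of the log2 fold change over the root of F. The biological coefficient of variation was 25.5%. No libraries of a group agreed within sampling noise, with a chi-square per degree of freedom from 14.9 to 58.9. Counts simulated for this comparison (14145 genes passing) gave recovery of 28.4% of genes changed 1.5-fold, 79.1% at 2-fold and 95.5% at 4-fold, with 2 false calls among 137. Only genes above 2 CPM in the controls were changed in this simulation, so recovery at lower levels was not measured. It changed far fewer genes than were called in the data, and the noise of each gene was drawn independently. Its recovery and false calls may therefore differ from those in these embryos. GENCODE M21 held all 42 rows and gave the gene coordinates, the overlaps and the exon lengths. Each length is that of the merged exons of all transcripts of the gene. Promoter letters are from RefSeq GRCm38.p6.

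The genes, lists, tests and alternatives were chosen with earlier results of these data known. Values per embryo are given for every called gene, for the 2 highest per length of each role class and for the 5 smallest p among genes not called. From the list of partner genes up to 5 called genes are named, with any needed to say that they did not pass. A further tested gene is not reported here by name and counts only in the tallies. Itga2b was given by embryo after its values were seen. Alternatives were RLE, upper quartile and total count scaling, no filter, a mean of at least 1 CPM, limma-voom (limma 3.58.1), DESeq2 1.42.0, non-robust dispersions, replicate number or embryo sex (read from sex-linked transcripts) as a term, subtraction of a lowess curve on exon length (span 0.3), and fits leaving out each library, control replicates 1 and 2, or p53_activated replicates 4 and 5.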

Additional observations from a re-analysis of the deposited data

Results flagged for a closer look

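In 4 of 62 groups of 5 embryos (31 genes in each of 2 genotypes, 6.45%), a single embryo stood apart from the other 4 by more than 0.71 of the range of the group. Chance gives about 1 in 20 such groups. Agrn was 151 CPM in control replicate 1 and 84.6 to 104 CPM in the other controls, with a gap of 0.715 of the range. Itga2b was 9.52 CPM in p53_activated replicate 4 and 3.05 to 4.79 CPM in the rest of its group (0.731). Itgav was 48.7 CPM in p53_activated replicate 2 against 35.3 to 39.1 CPM (0.721). Nid2 was 1.79 CPM in control replicate 4 against 3.85 to 4.23 CPM (0.848).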

How the results depend on the processing

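Hspg2, Lamb1 and Lamc1 kept their call in all 23 settings, with log2 fold changes of 0.79 to 1.06, 0.53 to 0.75 and 0.84 to 1.3 and an adjusted p of at most 0.0494. Lama1 lost its call once (0.51 without both p53_activated replicates 4 and 5) and Lama5 in 12 settings (down to 0.57, with adjusted p = 0.207, without both p53_activated replicates 4 and 5), among them total counts (0.0517), no filter (0.0664) and embryo sex as a term (0.0506). The cause was not tested. Calls higher numbered 8 with DESeq2 (5 with edgeR), 3 without both p53_activated replicates 4 and 5, and 4 to 7 with single libraries left out. Calls lower numbered 0, or 1 without p53_activated replicate 4 (range 0 to 1), which was Itga2b. With DESeq2 the further genes were Nid2 (adjusted p = 0.0103), Itga8 (0.0268) and Nid1 (0.0469).

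Of all tested genes, 652 were called higher and 398 lower. Leaving out single libraries gave 430 (without p53_activated replicate 5) to 707 higher and 192 (without control replicate 2) to 433 lower. Lower calls numbered 690 with DESeq2, 245 with embryo sex as a term, 194 without both control replicates 1 and 2, 255 without control replicate 4, and 230, 226 and 222 without p53_activated replicates 2, 3 and 5. Upper quartile scaling gave 576 higher and 538 lower. The partner list had 8 calls higher, or 5 to 9 with single libraries left out, 5 of them without control replicate 1 or 4 or p53_activated replicate 4 or 5. It had 0 lower, or 0 to 1 with single libraries left out and 2 with DESeq2.

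Signs changed for 11 of the 30 tested genes reported here, all with adjusted p of 0.462 or more there. Without both control replicates 1 and 2 the log2 fold changes were 0.01 for Lama4, 0.06 for Lama2, 0.57 for Itga11, 0.25 for Itga4 and 0.17 for Lamb2. Without both p53_activated replicates 4 and 5 they were -0.02 for Itga6, -0.14 for Lamb3 and -0.10 for Itgb1. The length trend removed gave -0.04 for Itga7, upper quartile scaling -0.02 for Itgb1, and limma-voom 0.07 for Itga3, 0.05 for Itga4 and 0.01 for Lamb2. Lamb2 was 0.01 with no filter or with a mean of at least 1 CPM and 0.02 with embryo sex as a term. With single libraries left out the ranges were -0.18 to 0.06 for Itga9, -0.05 to 0.16 for Itga7, -0.29 to 0.18 for Itga3, -0.20 to 0.23 for Lamb3, -0.22 to 0.08 for Itga4, -0.04 to 0.10 for Itgb1 and -0.08 to 0.15 for Lamb2.

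Same-numbered embryos did not deviate together (correlations of -0.053 to 0.113, 1 of 5 highest with its own number), so the shared numbers were not taken as a pairing. With the replicate block 5 of these genes were called higher and 0 lower, 538 and 266 of all tested genes, and Lamb2 was 0.02. Depth limits the rows not tested. At this spread most 1.5-fold changes were missed in the simulation, which changed no gene at the lowest levels.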
